A study of Homo sapiens with 12 samples.

Results

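The integrated stress response gene set examined here holds 40 genes: the transcription factor ATF4, the stress regulators that act with or downstream of it, enzymes of serine, glycine, one-carbon, asparagine and proline metabolism, amino acid transporters, the secreted and receptor targets STC2 and VLDLR, and the cytosolic aminoacyl-tRNA synthetases with the tRNA exporter XPOT. The genes were chosen by their known function, with no threshold on their values, but with earlier results of these data known. Counts of members set beside shares of all tested genes are therefore description only. All 40 had a row in the count table of 26364 rows. Of these, 39 passed the filter on low counts and entered the tests with 14184 genes in all, and CBS, the first enzyme of transsulfuration, did not pass, with 0 to 3 reads in any library. The synthetases are named as in the deposited table, by the older symbols (AARS, CARS and so on).

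The cells were MDA-MB-231, an established line from a triple-negative breast cancer with a mesenchymal phenotype. Parallel wells received no drug, 1 µM dexamethasone (DEX), 8 µM SH4-54 or DEX together with SH4-54 for 24 h, with 3 replicate wells in each of the 4 groups. DEX is a synthetic ligand of the glucocorticoid receptor, and SH4-54 is a small-molecule inhibitor of the transcription factors STAT3 and STAT5. All wells came from 1 unmodified cell line and the labels name replicate wells rather than separate cultures, so each p-value reflects well-to-well spread only. What vehicle the untreated wells received was not found in the labels.

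Libraries held between 25577213 and 35758236 counted reads, and the set took between 0.627% and 0.679% of them. Of the line's markers, VIM, CD44, AXL, CAV1 and MSN had group means of at least 278.6 CPM, reads scaled to a common library size, whereas ESR1, PGR and KRT20 reached at most 0.4505 CPM in a well. CDH1, an epithelial marker that was listed as low for this line, had group means between 8.06 and 14.2 CPM, and GATA3 lay between 0.82 and 1.6 CPM. The 7 markers of leukocytes, endothelium, liver and fat summed to between 0.4145 and 1.891 CPM per well. In a principal component analysis of all tested genes the combination well of replicate 2 stood farthest out on the second component, at -31.4 against -22.3 and -13.0 for replicates 1 and 3. Values without that well are given below for the leading rises of the combination, and for other members where they change a call or move a value by more than 1.5-fold. In bulk RNA, fewer expressing cells and less RNA per cell cannot be told apart.

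In the integrated stress response, kinases that sense amino acid shortage, unfolded protein, viral RNA or heme shortage phosphorylate the translation initiation factor eIF2. General translation then falls while translation of ATF4 rises through upstream open reading frames in its mRNA, so the ATF4 transcript level is not a measure of ATF4 protein. ATF4, often paired with a C/EBP protein, raises genes that import and make amino acids and charge tRNAs, and PPP1R15A (GADD34) brings a phosphatase to eIF2 and ends the response.

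The DNA element through which ATF4 and C/EBP proteins bind together, the C/EBP-ATF composite element, was searched for as TGATGNAA on both strands of RefSeq promoter windows (GRCh38.p14, 250 bases before to 50 after each annotated start). Of the 40 genes 33 had a window, and 13 of these 33 (39.4%) held the element, against 4.46% of 27305 genes with a window of the same length (1217 genes). It was found in 7 of 11 genes of the synthetase and tRNA export list, 4 of 6 transporters, 1 of 8 metabolic enzymes, 1 of 6 stress regulators and 0 of 2 secreted and receptor targets. The members were chosen as known ATF4 targets, so that choice itself favours a high share. Below are 10 of the 13, chosen to show the element beside the start sites of both transporters and synthetases. Each run is written along the strand of its gene and the capitals mark the match, which stands as TGATG first or as its reverse complement with TCA last.
ASNS: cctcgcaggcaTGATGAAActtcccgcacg
CHAC1: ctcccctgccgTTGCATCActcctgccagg
SLC3A2: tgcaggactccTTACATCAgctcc
SLC7A1: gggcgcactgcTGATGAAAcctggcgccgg
SLC1A4: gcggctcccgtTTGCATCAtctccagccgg
SLC1A5: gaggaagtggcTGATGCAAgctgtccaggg
AARS: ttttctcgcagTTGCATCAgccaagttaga
CARS: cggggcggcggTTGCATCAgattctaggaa
IARS: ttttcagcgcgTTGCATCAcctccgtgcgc
TARS: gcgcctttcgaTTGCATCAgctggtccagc

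In GRCh38.p14 these runs lie at chr7:97872458-97872487 (minus strand) for ASNS, chr15:40953251-40953280 (plus) for CHAC1, chr11:62881725-62881748 (plus) for SLC3A2, chr13:29595663-29595692 (minus) for SLC7A1 and chr2:64989381-64989410 (plus) for SLC1A4. SLC1A5 lies at chr19:46784893-46784922 (minus), AARS at chr16:70289675-70289704 (minus), CARS at chr11:3057407-3057436 (minus), IARS at chr9:92293692-92293721 (minus) and TARS at chr5:33440956-33440985 (plus). The matches began 209 bases before the start in CHAC1 and 38 after it in SLC3A2, the outer limits of the 10. The run of SLC3A2 is shorter because the window ends there. A full glucocorticoid response element, AGAACA and TGTTCT with 3 bases between them, was searched for on both strands. It was found in 0 of the 33 genes with a window and in 1 of the 27305 genes. At that share a set of 33 genes would be likely to hold none, so the 0 does not tell whether looser sites are present. A match describes the letters of these windows and is not a measurement of binding.

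**Figure D1:**
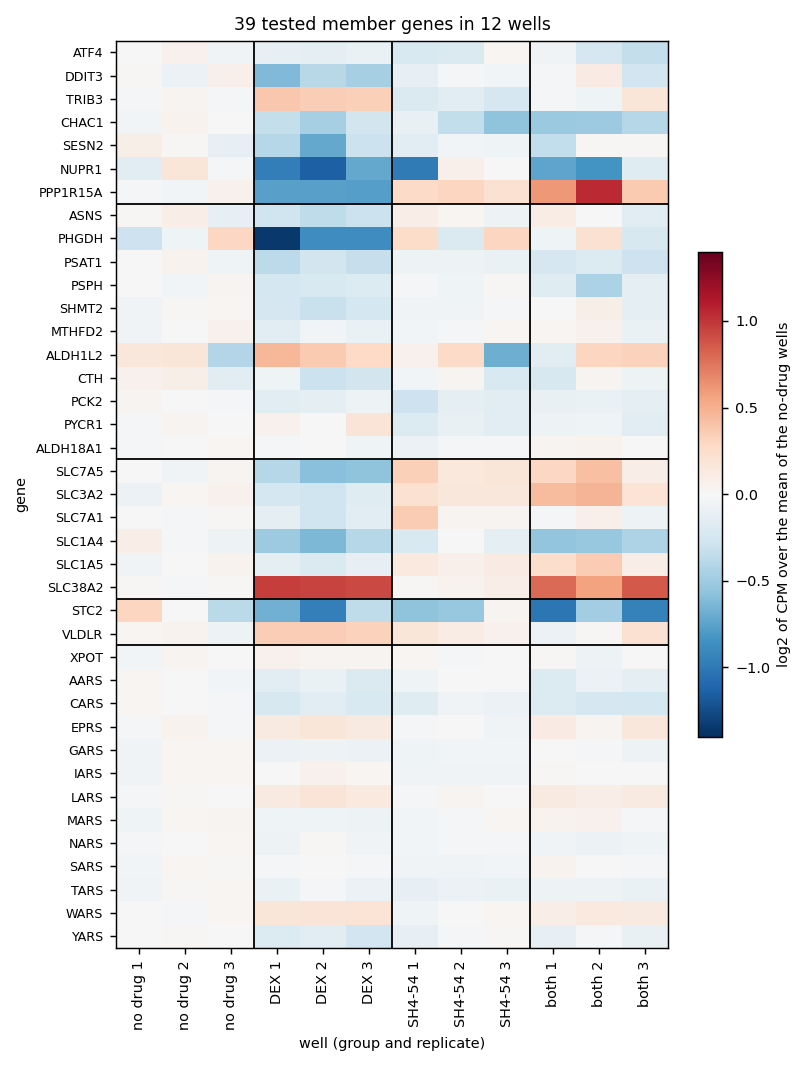
Heat map of the 39 tested genes (rows, in the order stress regulators, metabolic enzymes, transporters, secreted and receptor targets, synthetases with XPOT) in the 12 wells (columns), coloured by log2 of CPM over the mean of the 3 no-drug wells. The DEX wells are blue for most stress regulators and transporters and red for SLC38A2, the combination wells are red for PPP1R15A and the synthetase rows stay pale throughout.

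Against no drug, DEX lowered 18 of the 39 tested genes and raised 6 (edgeR quasi-likelihood test, Benjamini-Hochberg adjusted p below 0.05). Over all tested genes 23.2% fell and 21.9% rose in the same comparison. The median log2 fold change of the set was -0.15, against -0.01 over all genes. The groups did not overlap for 29 genes: 22 were lower in every DEX well than in every no-drug well and 7 were higher, where 28.9% and 27.2% of all tested genes were. Of the 24 calls, 18 were kept in all 12 fits that left out 1 library, and the others are named with their genes. The falls lay among the stress regulators (5 of 7), the transporters (5 of 6) and the metabolic enzymes (5 of 11), and among the synthetases with XPOT 3 fell and 3 rose of 13.

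ATF4 itself did not pass the test with DEX in the fit of all 4 groups. With only the no-drug and DEX wells fitted, ATF4 was called as fallen. It stood at 221, 232 and 215 CPM without drug, at 206, 202 and 209 CPM with DEX, at 192, 194 and 227 CPM with SH4-54 and at 216, 189 and 177 CPM with both. All DEX wells were below all no-drug wells, by a narrow margin, and the SH4-54 and combination wells spread across the range of the others. The log2 fold change with DEX was -0.12 ± 0.068 (SE, edgeR adjusted p = 0.183). With both drugs against none it was -0.20 ± 0.068 (edgeR adjusted p = 0.0259), and this call was lost without no-drug replicate 1 or 2 or combination replicate 2 or 3, with adjusted p up to 0.0994.

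PPP1R15A, the regulatory subunit that directs dephosphorylation of eIF2, moved furthest among the stress regulators that are well expressed. Its level was 83.6, 82.7 and 88.1 CPM without drug, 49.9, 50.1 and 49.6 CPM with DEX, 102, 104 and 98.1 CPM with SH4-54 and 129, 174 and 110 CPM with both. No 2 of the 4 groups overlapped, DEX wells were lowest and combination wells highest. DEX alone lowered it by a log2 fold change of -0.77 ± 0.11 (edgeR adjusted p = 6.56e-05), a level 0.588 times that without drug.

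DDIT3, which encodes the pro-apoptotic factor CHOP, stood at 19.0, 17.8 and 19.8 CPM without drug, 12.3, 14.5 and 13.7 CPM with DEX, 17.5, 18.5 and 18.4 CPM with SH4-54 and 18.6, 20.4 and 15.7 CPM with both. The DEX wells were below every other well, while the remaining groups overlapped. The log2 fold change with DEX was -0.48 ± 0.086 (edgeR adjusted p = 0.000325). DDIT3 shares exons with MARS on the opposite strand, and the labels do not say whether reads were counted by strand. MARS moved less on the log2 scale, by -0.06 with DEX, but from a higher level. Its means were 175 CPM without drug and 168 CPM with DEX, beside 18.9 and 13.5 CPM for DDIT3. Whether shared reads entered the DDIT3 values was not tested.

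NUPR1, a small stress-induced chromatin protein, was low, at 1.22, 1.52 and 1.34 CPM without drug, 0.70, 0.62 and 0.83 CPM with DEX, 0.69, 1.43 and 1.35 CPM with SH4-54 and 0.82, 0.76 and 1.21 CPM with both. DEX wells lay below no-drug wells, and the SH4-54 and combination wells each reached down to the DEX range. The fall with DEX was -0.93 ± 0.27 in log2 units (edgeR adjusted p = 0.0124). SESN2, a leucine sensor that restrains mTORC1, averaged 4.78 ± 0.33 CPM (SD, n = 3) without drug and 3.48 ± 0.50 CPM with DEX, a log2 fold change of -0.46 ± 0.13 (edgeR adjusted p = 0.00864). CHAC1, which degrades glutathione, averaged 4.50 ± 0.13 and 3.53 ± 0.26 CPM (SD, n = 3), a log2 fold change of -0.35 ± 0.12 (edgeR adjusted p = 0.0274). These 3 falls were the less steady ones. NUPR1 and SESN2 were not called without DEX replicate 2 (highest edgeR adjusted p 0.0545 and 0.0519), and CHAC1 was not called with DESeq2 (adjusted p = 0.0886) or without no-drug replicate 2 or 3 or DEX replicate 1 or 2 (adjusted p up to 0.104).

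TRIB3, a pseudokinase that binds AKT and is itself a CHOP and ATF4 target, went the other way. It stood at 41.5, 43.3 and 41.3 CPM without drug, 54.8, 53.3 and 53.0 CPM with DEX, 36.5, 37.9 and 35.7 CPM with SH4-54 and 41.5, 40.4 and 47.3 CPM with both. The DEX wells were the highest of all 12 and the SH4-54 wells the lowest. It rose with DEX by 0.35 ± 0.053 in log2 units (edgeR adjusted p = 7.26e-05), the 1 rise among the 7 stress regulators.

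Of the 6 transporters, 5 fell with DEX and SLC38A2 rose. SLC7A5 (LAT1) carries large neutral amino acids such as leucine into the cell, in a heterodimer with the glycoprotein SLC3A2 (4F2hc). SLC7A5 stood at 204, 197 and 210 CPM without drug, 154, 136 and 138 CPM with DEX, 256, 225 and 229 CPM with SH4-54 and 249, 274 and 218 CPM with both. The DEX wells were below all others, and the SH4-54 and combination wells were above the no-drug wells and overlapped each other. DEX lowered SLC7A5 by a log2 fold change of -0.51 ± 0.073 (edgeR adjusted p = 3.78e-05). Its pseudogene copies SLC7A5P1 and SLC7A5P2 have rows of their own in the table, so reads may have been divided between them.

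The partner SLC3A2 stood at 361, 390 and 398 CPM without drug, 321, 315 and 340 CPM with DEX, 444, 428 and 428 CPM with SH4-54 and 520, 532 and 436 CPM with both. It followed the order seen for SLC7A5: DEX wells lowest, no-drug wells next, SH4-54 and combination wells highest and overlapping. The log2 fold change with DEX was -0.23 ± 0.061 (edgeR adjusted p = 0.00582).

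SLC1A5 (ASCT2), a sodium-dependent carrier of glutamine and other neutral amino acids, stood at 184, 190 and 196 CPM without drug, 173, 165 and 175 CPM with DEX, 209, 199 and 206 CPM with SH4-54 and 225, 242 and 203 CPM with both. Again the DEX wells were lowest and SH4-54 and combination wells highest. Its fall with DEX was small, -0.15 ± 0.052 in log2 units (edgeR adjusted p = 0.0256), and was not called without no-drug replicate 2 or 3 or DEX replicate 1 or 2 (adjusted p up to 0.103). SLC7A1 (CAT-1), a carrier of arginine and lysine, averaged 86.6 ± 1.0 CPM without drug and 76.1 ± 4.4 CPM with DEX (SD, n = 3), a log2 fold change of -0.19 ± 0.071 (edgeR adjusted p = 0.0428). That call was lost in 7 of the 12 fits that left out 1 library (each no-drug library, DEX replicates 2 and 3, combination replicates 1 and 3; adjusted p up to 0.175), with DESeq2's size factors (0.0543) and with a stricter count filter (0.0501).

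SLC1A4 (ASCT1), a carrier of serine, alanine and cysteine, stood at 6.51, 6.00 and 5.80 CPM without drug, 4.29, 3.94 and 4.64 CPM with DEX, 5.26, 6.12 and 5.56 CPM with SH4-54 and 4.16, 4.24 and 4.51 CPM with both. All 6 wells with DEX, whether or not SH4-54 was present, were below all 6 wells without it. It fell by 0.51 ± 0.10 on the log2 scale with DEX alone (edgeR adjusted p = 0.000673).

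SLC38A2 (SNAT2), a carrier of small neutral amino acids whose expression is known to rise when amino acids are scarce, stood at 486, 469 and 484 CPM without drug, 940, 922 and 909 CPM with DEX, 485, 498 and 511 CPM with SH4-54 and 833, 711 and 868 CPM with both. All 6 wells with DEX exceeded all 6 wells without, and the combination wells lay below the DEX wells. The log2 fold change with DEX was 0.95 ± 0.055 (edgeR adjusted p = 2.63e-09), a level 1.93 times that without drug, and it was the only one of the 6 rises in the set of more than 1.5-fold.

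**Figure D2:**
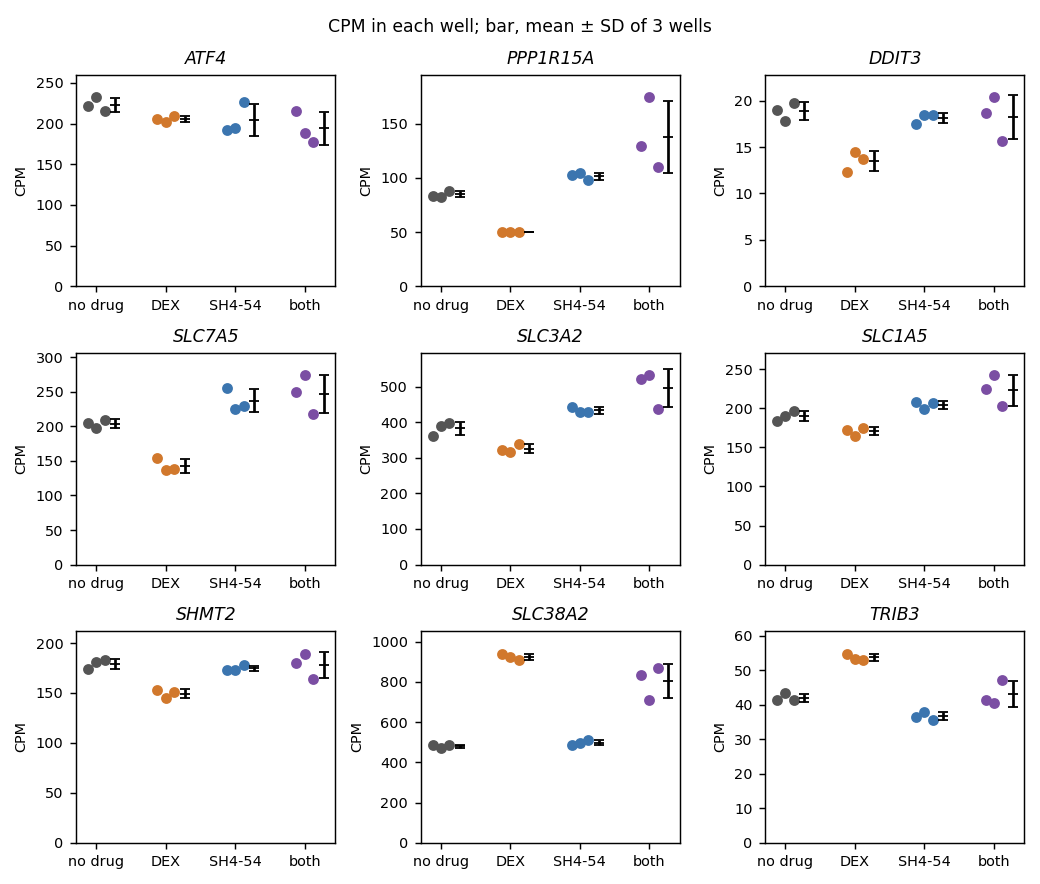
CPM (vertical axis, from 0, on TMM-scaled library sizes) of 9 genes in each well, with the mean and SD of the 3 wells beside the points of each group. PPP1R15A, DDIT3, SLC7A5, SLC3A2, SLC1A5 and SHMT2 are lowest in the DEX wells and return to or pass the no-drug level with both drugs, while SLC38A2 stays high in all wells with DEX.

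Among the metabolic enzymes, 5 of 11 tested fell with DEX and none rose. ASNS, which makes asparagine, averaged 17.4 ± 1.3 CPM without drug and 14.1 ± 0.37 CPM with DEX (SD, n = 3), a log2 fold change of -0.31 ± 0.073 (edgeR adjusted p = 0.00291). All 3 enzymes of serine synthesis from glycolysis fell. PHGDH, the first of them, was barely expressed, at 0.56, 0.66 and 0.84 CPM without drug, 0.27, 0.38 and 0.38 CPM with DEX, 0.82, 0.60 and 0.85 CPM with SH4-54 and 0.66, 0.80 and 0.59 CPM with both. Its DEX wells were below every other well, and the other groups overlapped. The log2 fold change was -0.99 ± 0.28 (edgeR adjusted p = 0.00926), and DESeq2 did not call it (adjusted p = 0.0551).

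PSAT1, the second enzyme of the pathway, was far from the detection limit and stood at 99.2, 102 and 94.9 CPM without drug, 76.6, 82.8 and 78.8 CPM with DEX, 94.3, 94.3 and 92.5 CPM with SH4-54 and 83.8, 86.3 and 80.6 CPM with both. All wells with DEX were below all wells without it. It fell by 0.32 ± 0.039 in log2 (edgeR adjusted p = 1.08e-05). PSPH, the last enzyme, fell by 0.21 ± 0.066 (edgeR adjusted p = 0.0158), from a mean of 28.7 to 24.7 CPM, and was not called without no-drug replicate 3 or DEX replicate 1 (adjusted p up to 0.0548).

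SHMT2, the mitochondrial enzyme that splits serine into glycine and a one-carbon unit, stood at 174, 181 and 183 CPM without drug, 153, 145 and 151 CPM with DEX, 173, 173 and 178 CPM with SH4-54 and 180, 189 and 164 CPM with both. The DEX wells were below all others, which overlapped. Its log2 fold change was -0.26 ± 0.045 (edgeR adjusted p = 0.000218). The enzymes that act after SHMT2 in the mitochondrial folate pathway did not pass: MTHFD2 had -0.09 ± 0.043 (edgeR adjusted p = 0.101) and ALDH1L2 had 0.36 ± 0.26 (0.29) at a mean below 1 CPM in every group. CTH of transsulfuration, PCK2 (mitochondrial PEP carboxykinase), and PYCR1 and ALDH18A1 of proline synthesis did not pass either, with log2 fold changes of -0.21, -0.12, 0.08 and -0.02.

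VLDLR, a lipoprotein receptor, rose with DEX from 9.02 ± 0.39 to 11.4 ± 0.11 CPM (SD, n = 3), a log2 fold change of 0.34 ± 0.077 (edgeR adjusted p = 0.00243). STC2, a secreted glycoprotein, stood at 1.06, 0.86 and 0.67 CPM without drug, 0.54, 0.45 and 0.68 CPM with DEX, 0.58, 0.60 and 0.89 CPM with SH4-54 and 0.43, 0.62 and 0.45 CPM with both. The groups overlapped except the combination wells and the no-drug wells. DEX alone did not pass, at -0.65 ± 0.27 (edgeR adjusted p = 0.0603).

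The synthetases, which attach each amino acid to its tRNA, changed little. Their log2 fold changes with DEX, with XPOT included, ran from -0.20 to 0.18 with a median of -0.03. YARS fell from 102 ± 0.87 to 88.1 ± 3.3 CPM (SD, n = 3), CARS from 83.8 ± 1.2 to 73.4 ± 2.0 CPM and AARS from 134 ± 3.1 to 121 ± 4.8 CPM. Those 3 falls had log2 fold changes of -0.20 ± 0.041, -0.19 ± 0.037 and -0.15 ± 0.038 (edgeR adjusted p 0.00078, 0.000611 and 0.00531). WARS, LARS and EPRS, the enzymes for tryptophan, leucine, and glutamate with proline, rose by 0.18 ± 0.031, 0.15 ± 0.028 and 0.14 ± 0.035 in log2 units (edgeR adjusted p 0.00023, 0.000542 and 0.00398). GARS, IARS, MARS, NARS, SARS, TARS and XPOT did not pass, and the farthest from 0 of these was GARS at -0.08 (edgeR adjusted p = 0.0525).

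Among members with the composite element in their promoter window, 8 of 13 fell with DEX, 0 rose and 5 did not pass, with a median log2 fold change of -0.15, where 23.2% of all tested genes fell and 21.9% rose. Among the 19 tested members whose window lacked it, 6 fell and 5 rose, with a median of -0.12. The shares were not tested. Members without the element included the largest fall and the largest rise, PHGDH and SLC38A2.

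**Figure D3:**
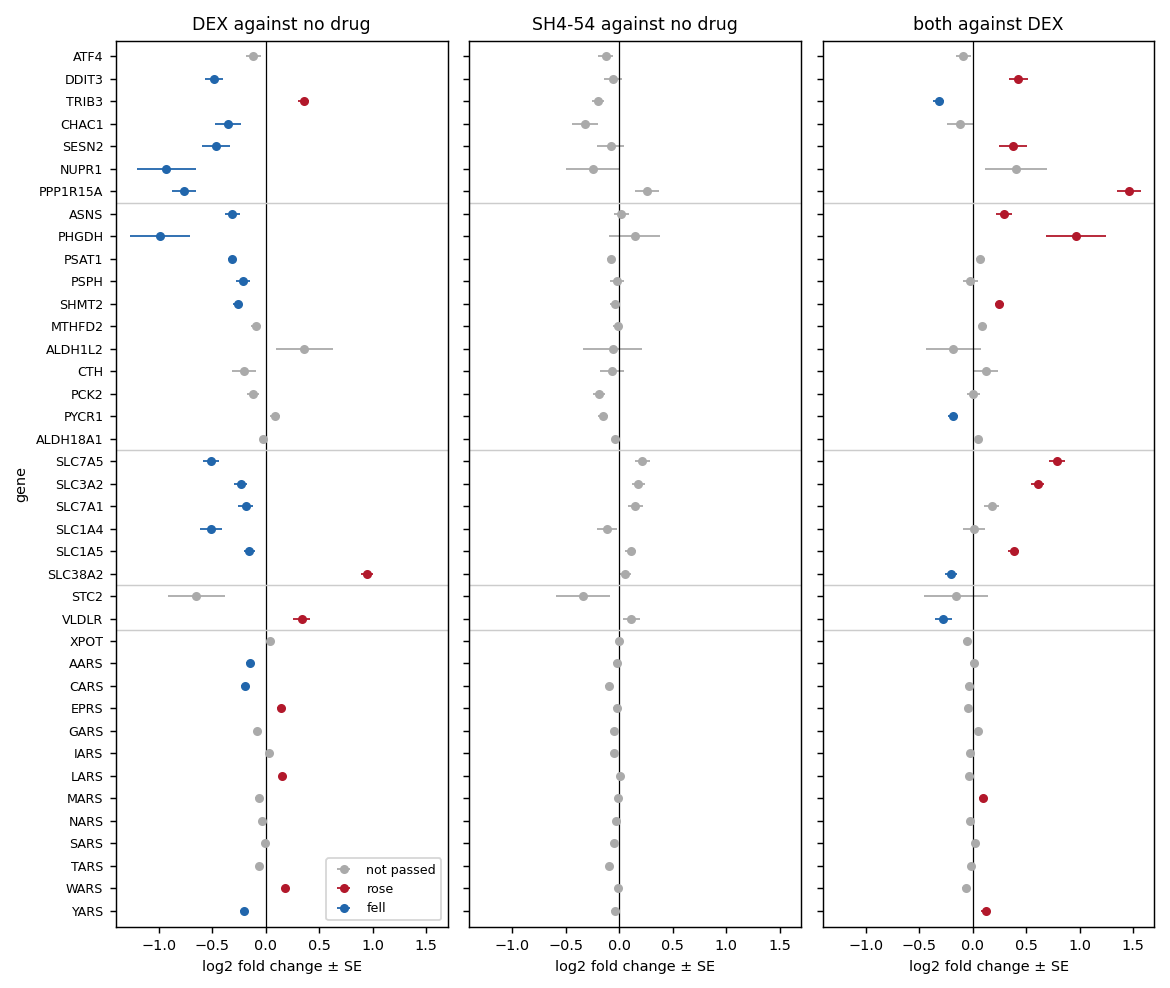
Log2 fold change with its standard error (horizontal axis) of each of the 39 tested genes (rows) for DEX against no drug, SH4-54 against no drug and both drugs against DEX, with points in colour where edgeR's adjusted p is below 0.05. In the first panel 18 points are blue and 6 red, in the second none is coloured, and in the third 11 are red and 4 blue.

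SH4-54 alone changed none of the 39 genes at the threshold (edgeR, 0 rose and 0 fell), where 0.268% of all tested genes rose and 0.331% fell. DESeq2 also called 0, where it called 1.3% of all tested genes in either direction. At an unadjusted p below 0.05 edgeR had 4 higher and 6 lower, and the share of all tested genes there was not counted. The log2 fold changes ran from -0.34 (STC2) to 0.26 (PPP1R15A), with a median of -0.04. In every SH4-54 well 6 genes were higher than in every no-drug well and 9 lower, beside 9.13% and 12.1% of all tested genes. The transporters SLC7A5, SLC3A2 and SLC1A5 and PPP1R15A were among the 6, as their values above show. Their adjusted p-values were 0.208 for SLC7A5, 0.216 for SLC3A2 and 0.34 for PPP1R15A (edgeR). PPP1R15A was called as risen with only the no-drug and SH4-54 wells fitted, and without combination replicate 2. Without combination replicate 3, SLC3A2 was called as risen and TRIB3 as fallen.

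In cells that had DEX, adding SH4-54 raised 11 of the 39 genes and lowered 4 (edgeR), against 13.0% and 13.5% of all tested genes. This comparison and that of DEX against no drug share the DEX wells, so a deviation in those wells moves them in opposite directions. The paired values below are therefore set side by side and no agreement between them is counted. Risen genes were 3 stress regulators (PPP1R15A, DDIT3, SESN2), 3 enzymes (PHGDH, ASNS, SHMT2), 3 transporters (SLC7A5, SLC3A2, SLC1A5) and the synthetases YARS and MARS. Fallen genes were TRIB3, SLC38A2, VLDLR and PYCR1. The median over the set was 0.01, against 0.00475 over all genes, and it was 0.38 for the 7 stress regulators and -0.03 for the 13 genes of the synthetase list.

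PPP1R15A had the largest rise, 1.46 ± 0.11 in log2 units (edgeR adjusted p = 2.02e-06), a level 2.76 times that with DEX alone. It was 1.26 without combination replicate 2, the well with the highest value of the 12. PHGDH followed with 0.97 ± 0.28 (edgeR adjusted p = 0.0198), on values below 1 CPM, and was not called without DEX replicate 1 or combination replicate 2 (adjusted p 0.0761 and 0.0835). SLC7A5 rose by 0.79 ± 0.073 (edgeR adjusted p = 7.01e-06), SLC3A2 by 0.61 ± 0.061 (1.5e-05) and SLC1A5 by 0.39 ± 0.051 (0.000149). Without combination replicate 2 these rises were 0.71, 0.55 and 0.32. These 3 transporters and PPP1R15A were also above no drug in the combination wells, with log2 fold changes of 0.28, 0.37, 0.23 and 0.70 (edgeR adjusted p 0.00594, 0.000159, 0.00186 and 0.000126), and of 0.20, 0.32, 0.17 and 0.49 without combination replicate 2.

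The other rises ended near the no-drug level. DDIT3 rose by 0.43 ± 0.087 (edgeR adjusted p = 0.00267) to a mean of 18.2 CPM, beside 18.9 without drug. ASNS rose by 0.29 ± 0.074 (edgeR adjusted p = 0.00989) to 17.3 CPM, beside 17.4. SHMT2 rose by 0.25 ± 0.045 (edgeR adjusted p = 0.00119) to 178 CPM, beside 179. Without combination replicate 2 the 3 rises over DEX were 0.34, 0.28 and 0.20 and each passed (edgeR adjusted p 0.0143, 0.0334 and 0.00559). None of these 3 passed the test of both drugs against none.

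Other genes that fell with DEX did not pass when SH4-54 was added to it. Among these CHAC1 had -0.12 (edgeR adjusted p = 0.529), NUPR1 0.41 ± 0.29 (0.327) and SLC7A1 0.18 ± 0.071 (0.0758). The other 5, PSAT1, PSPH, SLC1A4, AARS and CARS, had log2 fold changes of 0.07, -0.02, 0.01, 0.01 and -0.03. Against no drug the combination left these 5 at -0.24, -0.24, -0.50, -0.14 and -0.22 (edgeR adjusted p 0.000153, 0.00947, 0.0008, 0.00892 and 0.000191), with PSPH at -0.14 without combination replicate 2 (adjusted p = 0.0273). On the side of the rises, TRIB3 fell by 0.32 ± 0.053 with the addition (edgeR adjusted p = 0.000829) to a mean of 43.0 CPM, beside 42.0 without drug. SLC38A2 fell by 0.20 ± 0.054 (edgeR adjusted p = 0.0138), or by 0.12 without combination replicate 2, where it still passed, and stayed at 1.68 times its no-drug level.

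Of the 15 calls in this comparison 10 were kept in all 12 fits that left out 1 library. Without combination replicate 2 the counts were 7 risen and 3 fallen, and without DEX replicate 1 there were also 7 risen. Over all tested genes the share called was 26.6% in the full fit, 15.4% without combination replicate 2 and 20.5% without DEX replicate 1. Calls near the threshold gave way most often: SESN2 in 10 of the 12 fits (edgeR adjusted p up to 0.197, without DEX replicate 2), MARS in 9 (up to 0.159, without combination replicate 2) and YARS in 6 (up to 0.155, without combination replicate 2). VLDLR was not called without DEX replicate 2 or combination replicate 1 or 2, with adjusted p up to 0.0735. DESeq2 called 7 risen and 4 fallen, without SESN2, PHGDH, MARS and YARS (adjusted p 0.0952, 0.0926, 0.0983 and 0.0686).

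Against no drug the combination raised 8 genes and lowered 8 (edgeR), where 21.1% of all tested genes rose and 21.6% fell. In every well 7 were higher and 13 lower, beside 25.4% and 26.0% of all tested genes. Besides the genes above, EPRS, LARS and WARS rose by 0.10, 0.11 and 0.12 on the log2 scale, and CHAC1 and STC2 fell by 0.47 and 0.81. The edgeR adjusted p was 0.00563 for CHAC1 and 0.0246 for STC2. STC2 was not called by DESeq2 (adjusted p = 0.0982) or without no-drug replicate 1 or 2 or combination replicate 1 or 3 (up to 0.119), and EPRS was not called without no-drug replicate 1 or 3 or combination replicate 1 or 3 (up to 0.114). The set as a whole stood at a median log2 fold change of -0.02, against 0.00431 over all genes.

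The DEX effect could be measured again in cells that had SH4-54, in wells that the first comparison did not use. There DEX raised 7 and lowered 5 of the 39 genes (edgeR), against 20.1% and 20.3% of all tested genes. Rises in both settings were those of TRIB3, SLC38A2, EPRS, LARS and WARS, which are 83.3% of the 6 risen without SH4-54 and 71.4% of the 7 risen with it. Falls in both settings were those of PSAT1, PSPH, SLC1A4, AARS and CARS, which are 27.8% of the 18 fallen without SH4-54 and all of the 5 fallen with it. The sign of the DEX effect was the same in both settings for 24 genes and opposite for 15. These overlaps and signs were counted for the members only. Whether they differ from those of all tested genes was not tested. PPP1R15A and SLC3A2 were called in opposite directions: with SH4-54 present, DEX raised them by 0.44 ± 0.11 and 0.19 ± 0.061 in log2 units (edgeR adjusted p 0.00518 and 0.019).

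Some of these values rest on single wells. Without combination replicate 2, the well with the highest PPP1R15A level, the rise of PPP1R15A was 0.23 in place of 0.44 (edgeR adjusted p = 0.00446). Without combination replicate 3 the rise of TRIB3 was 0.15 in place of 0.23 (edgeR adjusted p = 0.0154). The rise of SLC3A2 was lost without SH4-54 replicate 2 or 3 or combination replicate 1 or 2 (edgeR adjusted p up to 0.0882). AARS was lost without SH4-54 replicate 2 or 3 or combination replicate 1 (up to 0.109), CARS without SH4-54 replicate 2 or 3 (up to 0.0934), PSPH, at -0.22, without SH4-54 replicate 3 or combination replicate 2 (up to 0.0560, at -0.12 without the latter), and EPRS without combination replicate 3 (0.0566). Without SH4-54 replicate 3 the falls numbered 3, and 35.4% of all tested genes were called, against 40.4% in the full fit. These 3 were PSAT1, SLC1A4 and SLC7A1. Of them SLC7A1 had not passed in the full fit (edgeR adjusted p = 0.0863).

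**Figure D4:**
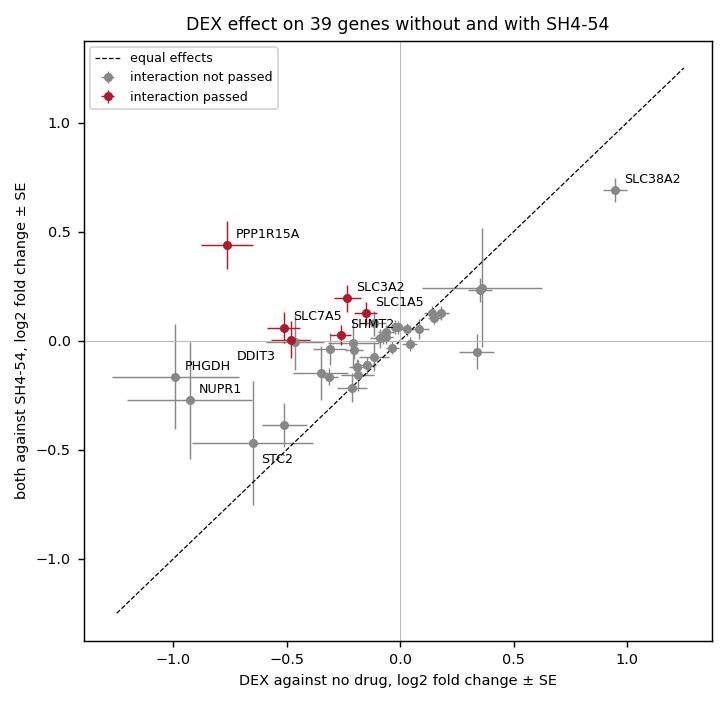
Log2 fold change with DEX in the absence of SH4-54 (horizontal axis) and in its presence (vertical axis) for the 39 tested genes, with standard errors on both axes and a dashed line where the effects are equal. The 6 genes in red, which passed the interaction test, lie above the line, and SLC38A2 stands apart at the upper right with 0.95 and 0.69.

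The interaction, which tests whether the 2 drugs' effects add on the log2 scale, was positive and past the threshold for 6 of the 39 genes and negative for 0 (edgeR), against 2.44% and 1.46% of all tested genes. At an unadjusted p below 0.05 there were 12 positive and 2 negative, and the share of all tested genes there was not counted. DESeq2 called 6 and 1, where it called 5.32% of all tested genes in either direction. The 6 were PPP1R15A (1.20 ± 0.16, edgeR adjusted p = 0.00185), SLC7A5 (0.57 ± 0.10, 0.00949), SLC3A2 (0.43 ± 0.086, 0.0153), SHMT2 (0.29 ± 0.063, 0.0235), DDIT3 (0.49 ± 0.12, 0.0386) and SLC1A5 (0.28 ± 0.073, 0.0475). By role they were 2 stress regulators, 1 enzyme and 3 transporters, with 0 of the 13 synthetase and export genes. For SLC38A2 the interaction was -0.26 ± 0.077 and did not pass (edgeR adjusted p = 0.0751). It was called as negative with DESeq2, without a count filter and without combination replicate 3.

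PPP1R15A and SLC7A5 passed the interaction in all 12 fits that left out 1 library, with adjusted p of at most 0.0101 and 0.0363. SLC3A2 passed in all but the fit without DEX replicate 2 (0.0529). SHMT2 was lost without no-drug replicate 2 or 3, DEX replicate 2 or 3, SH4-54 replicate 2 or combination replicate 1 (up to 0.0710). DDIT3 and SLC1A5 passed only in the full fit and without combination replicate 3 (up to 0.102 and 0.126). Without combination replicate 2 the interaction called 4 genes, with values of 1.00 for PPP1R15A, 0.49 for SLC7A5, 0.37 for SLC3A2 and 0.24 for SHMT2. The number called was 3 without no-drug replicate 2 or 3, DEX replicate 3, SH4-54 replicate 2 or combination replicate 1, and 2 without DEX replicate 2. The share of all tested genes past the interaction moved as well, from 3.9% in the full fit to 1.42% without DEX replicate 2, 2.11% without combination replicate 2 and 14.3% without combination replicate 3.

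Within the combination group the 6 genes ranked the wells alike. Each was highest in replicate 2, middle in replicate 1 and lowest in replicate 3, which is also the order of these wells on the second principal component. That order was found in 14 of the 39 genes (35.9%) and in 21.2% of all tested genes, and the opposite order in 6 (15.4%), SLC38A2 among them, and in 22% of all. The part of the well-to-well variation in these results was not tested beyond leaving wells out.

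Genes of the same pathways outside the set were described from lists of known targets and families. Of 19 tested further targets of ATF4 and CHOP, 7 rose and 7 fell with DEX, beside 21.9% and 23.2% of all tested genes. CEBPB, a C/EBP family partner of ATF4, rose from 19.6, 18.2 and 17.3 CPM to 58.4, 55.5 and 60.4 CPM, a log2 fold change of 1.66 ± 0.074 (edgeR adjusted p = 1.92e-10). GDF15, a stress-induced secreted cytokine, fell from 70.0, 67.6 and 59.3 CPM to 11.8, 12.9 and 12.2 CPM, a change of -2.41 ± 0.11 (edgeR adjusted p = 1.96e-10). Neither pair of groups overlapped. When SH4-54 was added to DEX, 3 of the 19 rose and 2 fell, beside 13.0% and 13.5% of all tested genes. ATF3, a stress-induced repressor of the same family as ATF4, rose from 6.27, 6.47 and 6.67 CPM to 16.4, 20.8 and 15.9 CPM, by 1.45 ± 0.10 (edgeR adjusted p = 1.12e-06), and SQSTM1, an autophagy receptor, rose by 0.60 ± 0.047 (2.1e-06). Both also passed the interaction, with 1.13 and 0.35. Of the 2 falls the larger was that of DDIT4, with a log2 fold change of -0.62. It went from 240, 247 and 238 CPM with DEX to 152, 125 and 195 CPM with both.

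Of 13 further amino acid transporters tested, 7 rose and 4 fell with DEX, where 21.9% of all tested genes rose and 23.2% fell. SLC7A11 (xCT), which exchanges glutamate for cystine and also pairs with SLC3A2, fell from 592, 623 and 657 CPM to 344, 342 and 345 CPM, by -0.86 ± 0.058 in log2 units (edgeR adjusted p = 1.41e-08). With both drugs it was at 469, 427 and 392 CPM, above all DEX wells and below all no-drug wells, a rise of 0.32 ± 0.058 over DEX (edgeR adjusted p = 0.00127). SLC7A2 (CAT-2), an arginine carrier, rose from 65.2, 66.8 and 67.6 CPM to 138, 135 and 129 CPM with DEX, by 1.01 ± 0.044 (edgeR adjusted p = 1.58e-10), the opposite direction from SLC7A1.

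The other synthetase families were higher with DEX where they passed. Of 17 mitochondrial synthetases, 7 rose and 0 fell, against 21.9% and 23.2% of all tested genes, with a median log2 fold change of 0.10. TARS2 led these with 37.1, 36.7 and 37.0 CPM without drug and 46.4, 46.0 and 46.0 CPM with DEX, 0.32 ± 0.036 (edgeR adjusted p = 3.63e-06). Of 10 further cytosolic synthetases and scaffold proteins of the multi-synthetase complex, 5 rose and 0 fell, beside the same shares of all tested genes, AIMP2 among them with 0.30 ± 0.046 (edgeR adjusted p = 8.24e-05). No interaction passed in either list (edgeR, 0 of 17 and 0 of 10), where 2.44% of all tested genes passed upward and 1.46% downward, so lists of this size would hold few or no calls at that share. The composite element was found in 1 of 14 mitochondrial synthetase genes with a window (7.14%) and in 0 of 9 such genes of the further cytosolic list. In the synthetase and export genes of the set it was found in 7 of 11. The synthetases of the set were chosen as ATF4 targets and the further lists were not, so the choice itself favours this difference. The association was not tested.

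**Figure D5:**
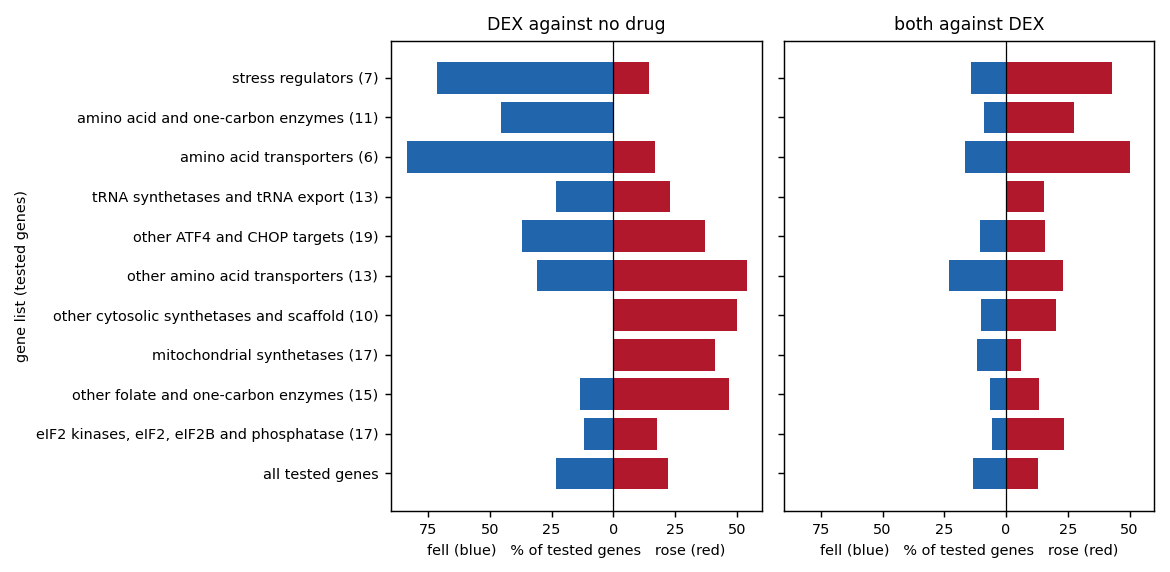
Share of tested genes (horizontal axis, percent) that fell (blue, to the left) or rose (red, to the right) in each gene list (rows, number tested in parentheses) with DEX against no drug and with both drugs against DEX. The stress regulators and transporters of the set extend furthest to the left with DEX, at 5 of 7 and 5 of 6 genes, the other synthetase lists extend to the right only, and the last row gives all tested genes.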

How the data were processed

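RNA-seq libraries from 12 wells were used, 3 per group. Read counts per gene symbol, as whole numbers, are what the authors deposited. Per the submitters' processing notes, the tools were HISAT2 2.1.0, SAMtools and featureCounts 1.5.1, on hg19 and GRCh37. No source used here gives the strand setting or the treatment of multiply mapped reads, so 12 members with a named pseudogene and 9 that share exons with an opposite-strand gene are uncertain. One label field writes SH4-54 as SH5-54, and the titles were followed.

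Counts were filtered with filterByExpr, scaled by TMM and fitted in edgeR 4.0.16 (R 4.3.3) with 1 quasi-likelihood model of the 4 groups (8 residual degrees of freedom). The 6 comparisons were adjusted by Benjamini-Hochberg over 14184 genes, and a gene rose or fell where adjusted p was below 0.05. Standard errors were obtained by dividing the size of each log2 fold change by the root of its F statistic. CPM use TMM-scaled library sizes. The test was checked on simulated counts.

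Values in every well are given for ATF4, for genes past the interaction, and for genes past a comparison by at least 0.5 on the log2 scale without overlap. TRIB3, PSAT1 and the wells of list genes were added after their values were seen. Up to 4 genes of each further list were eligible, by smallest p. Some items that this rule takes are left out here. Members and lists were chosen with earlier results of these data known. DESeq2 1.42.0, its size factors, other filters, the compared groups alone, a replicate block and each library left out were alternatives. RefSeq promoter windows are on GRCh38.p14, another build than the counts.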

Additional observations from a re-analysis of the deposited data

Results flagged for a closer look

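For 6 genes the effect of DEX differed between cells without and with SH4-54 by the test of the difference itself (edgeR's interaction term, adjusted p below 0.05). PPP1R15A differed by 1.20 on the log2 scale, the DEX effect going from -0.77 to 0.44 (0.23 without combination replicate 2, where the difference is 1.00). SLC7A5 differed by 0.57, from -0.51 to 0.06, and its partner SLC3A2 by 0.43, from -0.23 to 0.19. DDIT3 differed by 0.49, from -0.48 to 0.00368. SHMT2 differed by 0.29, from -0.26 to 0.03, and SLC1A5 by 0.28, from -0.15 to 0.12. The 6 were not equally steady over the 12 fits that left out 1 library. The difference passed in 12 for PPP1R15A and SLC7A5, 11 for SLC3A2, 6 for SHMT2 and 1 each for DDIT3 and SLC1A5. Groups of 3 wells are too small for the test of a single outlying sample, so none was made.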

How the results depend on the processing

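No member changed direction in a called result in 4147 pairs of a gene result and a setting, and 3990 kept their side of the threshold. With the compared groups fitted alone, 1 member, PPP1R15A, rose with SH4-54. With DESeq2, 7 rose with both drugs against DEX. SLC38A2 had the 1 negative interaction with DESeq2 and the 1 without a count filter. Leaving out each library in turn gave 13 to 19 falls and always 6 rises with DEX, 0 to 1 rises and 0 to 1 falls with SH4-54, 7 to 11 rises and 3 to 4 falls for both against DEX, 6 to 7 and 3 to 5 against SH4-54, 7 to 8 and 6 to 9 against no drug, and 2 to 7 positive and 0 to 3 negative interactions. The rise with SH4-54 was that of PPP1R15A without combination replicate 2 and that of SLC3A2 without combination replicate 3. The fall, of TRIB3, and the 3 negative interactions appeared without combination replicate 3. In the same fits the share of all tested genes called ran from 38.4% to 46.6% with DEX and from 15.4% to 32.3% for both against DEX. Over all genes, SH4-54 changed 85, and 176 without a filter, 155 with its groups alone and 185 with DESeq2. Leaving out a library gave 26 (without no-drug replicate 2) to 163 (without combination replicate 3). The interaction changed 553, and 848 without a filter. Leaving out a library gave 204 (without DEX replicate 2) to 2046 (without combination replicate 3), and 303 without combination replicate 2.

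Replicate numbers did not pair the wells: correlations of deviations within a number ran from -0.0975 to 0.0926, and 12 of 36 best matches had the same number. With the replicate block, 9 members rose with both drugs against DEX and 4 interactions were positive, DDIT3 (edgeR adjusted p = 0.0549) and SLC1A5 (0.0793) being lost, as were SESN2 (0.0700) and MARS (0.0730) for both against DEX. SLC1A5 was also lost with DESeq2's size factors (0.0553). With the compared groups alone, SESN2, VLDLR, MARS and YARS were lost for both against DEX (0.105, 0.0549, 0.0797, 0.0781), PSPH and SLC3A2 against SH4-54 (0.0612, 0.0512) and EPRS against no drug (0.0759). Members below 1 CPM (PHGDH, ALDH1L2, STC2) had standard errors above 0.2 on the log2 scale, so changes well beyond that could go uncalled in them. With DEX, STC2 at -0.65 did not pass (edgeR adjusted p = 0.0603), while PHGDH at -0.99 did.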

Other observations

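Of 17 tested genes for the eIF2 kinases, eIF2, its exchange factor eIF2B and the phosphatase, 3 rose and 2 fell with DEX, beside 21.9% and 23.2% of all tested genes. IMPACT, an inhibitor of the amino acid sensing kinase GCN2, rose by 0.43 ± 0.062 in log2 (edgeR adjusted p = 4.87e-05), from a mean of 30.2 to 40.7 CPM. It fell by 0.35 when SH4-54 was added to DEX (edgeR adjusted p = 0.00123), to 32.0 CPM. PPP1R15B, the constitutive counterpart of PPP1R15A, fell with DEX by 0.19 (edgeR adjusted p = 0.000114).

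Of 15 tested folate and one-carbon enzymes outside the set, 7 rose and 2 fell with DEX, against the same shares of all tested genes. MTR, methionine synthase, rose by 0.31 in log2 (edgeR adjusted p = 9.22e-05).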
